A study of Mus musculus with 2 samples.

Results

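Simple epithelia, such as the luminal and glandular lining of the uterus, are held together by tight and adherens junctions and stiffened by keratin filaments. A keratin filament is built from a type I and a type II chain in equal amounts, and Krt8 with Krt18 is the founding pair of simple epithelium. Claudins seal the tight junction, Cdh1 (E-cadherin) joins neighbouring cells, and Epcam is a surface adhesion protein of epithelial cells. In an enzymatic digest of uterine horns made to isolate stromal cells, these transcripts serve as markers of epithelium. The question was whether the keratin partners and the junction genes gave the same ratio of epithelial RNA between the floxed control and the conditional knockout. The genes were Krt7, Krt8, Krt18, Krt19, Cldn3, Cldn4, Cldn7, Cldn10, Cdh1 and Epcam, 10 of 12393 genes on the array with a probe set of exactly 1 gene symbol. They were chosen by name, with earlier results of these data known, and all 15 of their probe sets were kept. No probe set with several symbols named any of them.

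Uterine stromal cells were taken on day 5 of pregnancy from control mice with floxed alleles and from mice in which Cre, expressed from the progesterone receptor locus, was to delete the target in the uterus. Cells of 3 animals were pooled per genotype, and each pool gave 1 Affymetrix array, so no replicate exists, nothing could be tested, and every value describes these 2 arrays. The titles name Hif1, the genotype field calls the samples Hif2 alpha-intact and Hif2 alpha-null, and the breeding note names Rac1 as the gene to be ablated, so the second array is called cKO-labelled, after its title. The progesterone receptor is also made by uterine epithelium, so the Cre is not restricted to stroma. The deposited values are MAS5 signals, a linear brightness for each probe set scaled per array by the authors. The median signal over 22690 probe sets was 41.8 in the control and 34.4 on the cKO-labelled array. Signals below 19.7, the 40th percentile of both arrays pooled, were treated as being at a floor. The only error available was the disagreement of a gene's brightest probe set with its next, an SD of 0.64 per log2 ratio over 2660 genes, which leaves out the spread between animals, pools and arrays. The SD is taken about a mean difference of 0.41, and the root mean square, which keeps that mean in, was 0.70 per log2 ratio. Signals of different probe sets cannot be set against each other, so genes are compared through their log2 ratio, cKO-labelled minus control.

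The arrays carried the stroma they are labelled for. All 15 stroma markers were above the floor on at least 1 array, with a median log2 ratio of 0.06 that turned to -0.16 after quantile normalization and to -0.22 with the median over a gene's probe sets, and their summed signal was 35181 in the control and 47522 on the cKO-labelled array. At the brightest probe sets, Hoxa11, a homeobox factor of the uterus, was the only one past 2-fold (signals 389 and 108, log2 ratio -1.85). Dimmer probe sets of Pdgfrb (-2.09), Pdgfra (-1.70) and Col1a1 (-1.26) were also past 2-fold lower, where their brightest gave 0.46, -0.002 and 0.59. The dimmer probe sets of Nr2f2 were instead higher (0.81 and 0.70), where its brightest gave -0.54. Hand2, a progesterone-regulated factor of uterine stroma, was close to the floor with signals of 21.2 and 22.1. The 3' to 5' signal ratio of the b-actin control probe sets, a measure of how far labelled RNA extends from its 3' end, was 2.27 in the control and 16.0 on the cKO-labelled array, and the Gapdh ratio was 1.49 and 7.25. This difference runs with the genotype labels and stands beside each ratio below, and its part in them was not tested. Across the 2660 genes with a pair of measured probe sets, the log2 ratio of the next probe set was on average 0.41 below that of the brightest.

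Of the 10 genes, 9 were measured above the floor on both arrays, and their log2 ratios did not fall on a common value. Krt18, Cldn3, Cldn10 and Cldn4 were at least 2-fold lower on the cKO-labelled array, Krt8 and Cdh1 were higher by about 1.5-fold, and Krt7, Cldn7 and Epcam were lower by less than 2-fold. The 4 of 9 that were at least 2-fold lower compare with 13.0% of all 8593 genes compared, and none of the 9 was at least 2-fold higher, where the background was 6.21%. By any amount, 7 of 9 were lower, against a background of 55.3%. The genes were chosen with earlier results of these data known, so these counts cannot be taken as independent of that choice. The median log2 ratio of the 9 genes was -0.75, where that of all genes compared was -0.10. The lowest and the highest gene lay 2.84 apart on the log2 scale, and the SD over the 9 genes was 1.01, where the SD over all genes compared was 0.78. The background depends on the scaling, since genes at least 2-fold higher made up 32.3% of all genes past 2-fold as deposited, 46.5% after quantile normalization, 45.1% after removal of the trend with signal and 63.1% after median centring. Fewer epithelial cells and less RNA per epithelial cell cannot be told apart in RNA of pooled cells.

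**Figure D1:**
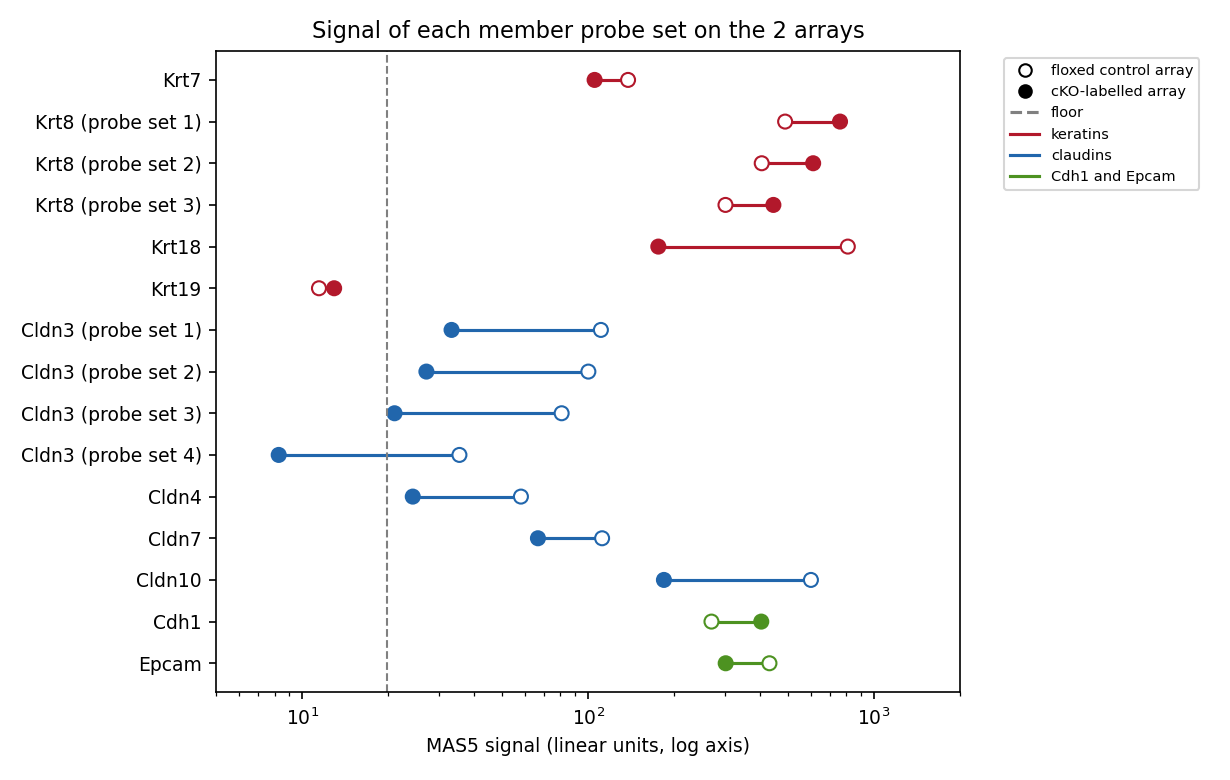
MAS5 signal (log axis) of the 15 probe sets on the floxed control array (open circles) and the cKO-labelled array (filled circles), with the floor at 19.7 dashed and probe sets of 1 gene numbered from the brightest. All claudin probe sets and Krt18 have the filled circle to the left, the 3 Krt8 probe sets and Cdh1 have it to the right, and Krt19 lies left of the floor on both arrays.

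The keratins split most clearly. Krt18, the type I chain of simple epithelium, gave a signal of 810 in the control and 176 on the cKO-labelled array, which is a log2 ratio of -2.20, or 4.60-fold lower. Only 52 of the 8593 genes compared had a lower ratio. Krt8, the type II chain that pairs with it, gave signals of 489 in the control and 761 on the other array at its brightest probe set, for a log2 ratio of 0.64, or 1.56-fold higher. That ratio is no larger than the probe set SD of 0.64. The other 2 probe sets gave signals of 405 and 613 and of 302 and 445, with log2 ratios of 0.60 and 0.56. The 3 Krt8 probe sets therefore gave nearly the same ratio, with an SD of 0.04, while Krt18 rests on 1 probe set. The 2 dimmer Krt8 probe sets carry the suffix _x_at, which marks probes that can also bind other transcripts, and the RefSeq gene table lists 1 pseudogene named after Krt8. The partners differed by 2.84 on the log2 scale, a factor of 7.16. Among the 2660 genes with a pair of measured probe sets, 16 (0.602%) had probe sets that far apart. The 3' to 5' ratio of the b-actin control probe sets, taken within a transcript, itself differed by a factor of 7.08 between the arrays. For Gapdh that factor was 4.86. The part of this 3' to 5' difference in the gap between Krt8 and Krt18 was not tested.

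Krt7, a type II keratin of ducts and glands, gave signals of 138 in the control and 105 on the other array, for a log2 ratio of -0.39, which is within the probe set SD of 0.64. It stood 1.81 above Krt18 and 1.03 below Krt8. Krt19, a small type I keratin, had signals of 11.4 and 12.9 and was at the floor on both arrays, so it has no ratio, and a probe set at the floor does not show that a gene is silent.

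Krt8 and Krt18 are neighbours on chromosome 15 in the RefSeq gene table (assembly GRCm38.p6), with no other protein-coding gene between them, so the pair with the widest gap in ratio shares a locus. The 250 bases before each start are shown because of this gap between adjacent partners, although the ratio of Krt8 alone is within the probe set SD. They were read 5′ to 3′ on the gene's strand from the RefSeq promoter table of GRCm38.p6, and capitals mark CAGGTG or its reverse complement CACCTG, the E-box that the repressors Snail and Zeb bind in epithelial genes. The window of Krt8 is chr15:102004343-102004592 on the minus strand, and that of Krt18 is chr15:102027966-102028215 on the plus strand.
Krt8: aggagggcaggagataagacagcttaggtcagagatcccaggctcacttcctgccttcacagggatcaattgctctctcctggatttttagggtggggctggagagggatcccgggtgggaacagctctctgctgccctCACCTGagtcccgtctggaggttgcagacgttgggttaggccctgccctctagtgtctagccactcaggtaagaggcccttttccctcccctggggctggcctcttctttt
Krt18: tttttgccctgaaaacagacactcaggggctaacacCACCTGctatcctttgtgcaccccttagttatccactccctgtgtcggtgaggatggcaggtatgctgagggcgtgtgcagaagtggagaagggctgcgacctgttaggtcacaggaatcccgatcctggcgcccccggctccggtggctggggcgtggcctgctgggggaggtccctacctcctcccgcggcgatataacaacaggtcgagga
Each window held 1 such match, 111 bases before the start of Krt8 and 214 bases before the start of Krt18. The match is present at both partners, and any part of it in their ratios was not tested.

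The claudins lay closer to one another than the keratins, which had an SD of 1.44 over 3 genes. All 4 were lower on the cKO-labelled array, 3 of them at least 2-fold, with a median log2 ratio of -1.48 and an SD of 0.47 over the 4 genes. Cldn3, a sealing claudin of tight junctions, gave signals of 111 in the control and 33.3 on the other array at its brightest probe set, for a log2 ratio of -1.74, or 3.33-fold lower. Its next 2 probe sets gave signals of 100.2 and 27.2 and of 80.8 and 21.0, with log2 ratios of -1.88 and -1.94. The dimmest had 35.4 in the control and 8.27, under the floor, on the other, so it was at least 1.80-fold lower. All 4 Cldn3 probe sets were therefore lower, although 2 of the 4 carry the suffix _x_at and the signals on the cKO-labelled array are close to the floor.

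Cldn10, a claudin that forms ion pores and has alternative first exons, gave signals of 602 in the control and 184 on the other array, for a log2 ratio of -1.71, or 3.27-fold lower. Its only probe set has the suffix _s_at, which marks probes shared by several transcripts, so its transcript forms cannot be separated. Cldn4, another tight junction claudin, gave signals of 58.2 in the control and 24.3 on the other array, for a log2 ratio of -1.26, or 2.39-fold lower. Cldn7, which is also found along the sides of epithelial cells and binds Epcam, gave signals of 112 in the control and 66.7 on the other array, for a log2 ratio of -0.75, or 1.68-fold lower. Cldn3 and Cldn10 differed by 0.03, and the widest gap among the claudins, 0.99 between Cldn3 and Cldn7, was close to the SD of 0.91 of the difference between 2 probe sets of a gene. Cldn4 was past 2-fold as deposited and after quantile normalization, but not after median centring (-0.98) or removal of the trend with signal (-0.94).

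Cldn3 and Cldn4 are likewise adjacent protein-coding genes, on chromosome 5, and both were lower. Their windows of 250 bases are shown in the same way, as the neighbouring pair that went together. Cldn3 lies in chr5:134985964-134986213 on the plus strand and Cldn4 in chr5:134946935-134947184 on the minus strand.
Cldn3: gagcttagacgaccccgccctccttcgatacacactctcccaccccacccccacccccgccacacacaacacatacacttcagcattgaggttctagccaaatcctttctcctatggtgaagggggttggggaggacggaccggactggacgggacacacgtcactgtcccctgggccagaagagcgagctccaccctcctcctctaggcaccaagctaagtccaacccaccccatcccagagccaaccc
Cldn4: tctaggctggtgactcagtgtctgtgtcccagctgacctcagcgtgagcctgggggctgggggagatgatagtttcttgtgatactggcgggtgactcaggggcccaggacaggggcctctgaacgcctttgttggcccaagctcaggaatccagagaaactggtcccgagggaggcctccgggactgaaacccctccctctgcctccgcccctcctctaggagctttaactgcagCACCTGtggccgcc
Cldn4 held 1 match to CAGGTG or CACCTG, 14 bases before its start, and the window of Cldn3 held none. The RefSeq table has windows for 8 of the 10 genes, 10 windows in all, with 2 each for Cldn7 and Cldn10. A match stood in 6 of these 10 windows, where 17.2% of all 32851 windows of that length held it, with further matches at Krt7, Epcam and 1 of the windows of Cldn7. The hypoxia response core was searched as ACGTG and GCGTG on both strands, and the letters CACGTG, read on either strand, count for the first. The first stood in 2 member windows (16.6% of all windows) and the second in 6 (28.2%). The GC box GGGCGG, on both strands, stood in 6 (32.7%) and TATAA, on the gene's strand, in 2 (16.0%). These are matches of letters, and nothing here measured a factor on this DNA.

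**Figure D2:**
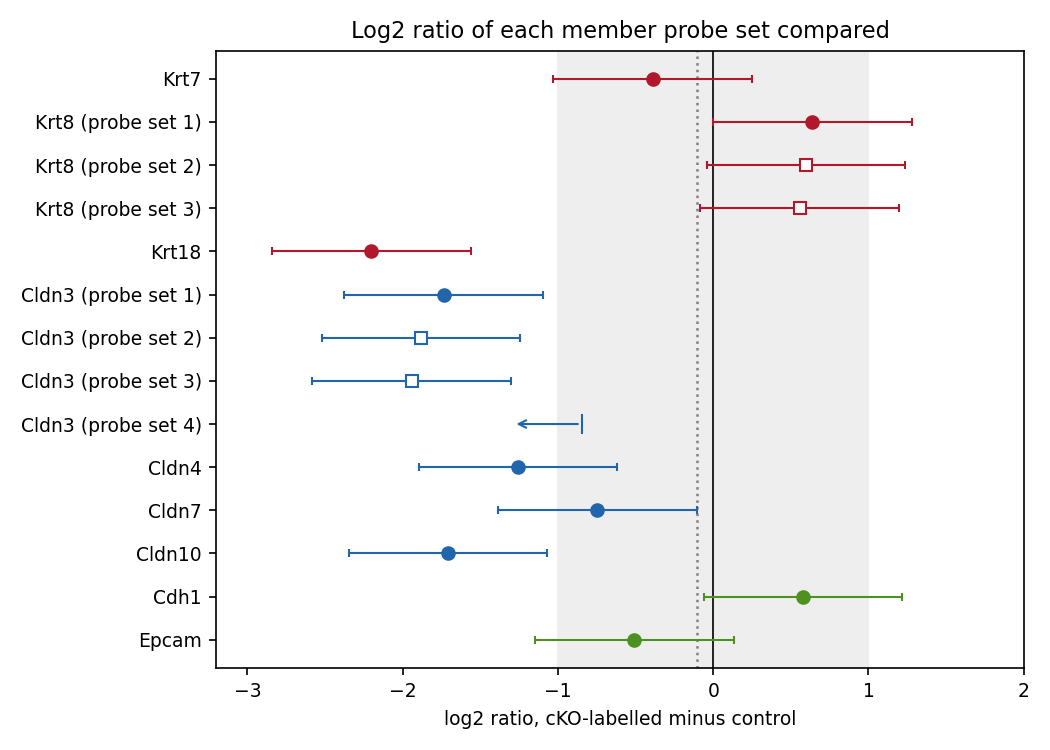
Log2 ratio (cKO-labelled minus control) of the 14 probe sets compared, filled circles for the brightest probe set of a gene and open squares for the others. Bars are the probe set SD of 0.64, not a replicate error, the arrow is a bound for the Cldn3 probe set under the floor, grey shading is within 2-fold, and the dotted line is the median of all genes compared (-0.10). The claudins and Krt18 lie left of zero, while the 3 Krt8 probe sets and Cdh1 lie right of it.

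The 2 adhesion genes outside the tight junction pointed in different directions by small amounts. Cdh1, the cadherin of epithelial adherens junctions, gave signals of 270.1 in the control and 403 on the other array, for a log2 ratio of 0.58, or 1.49-fold higher. Epcam gave signals of 431 in the control and 303 on the other array, for a log2 ratio of -0.51, or 1.42-fold lower. Each value is within the probe set SD of 0.64, and they lay 1.09 apart, where 708 of the 2660 genes (26.6%) had probe sets at least that far apart. Cdh1 stood beside Krt8, with a difference of 0.06, and 2.78 above Krt18. Epcam stood beside Krt7, with a difference of 0.12, and 0.24 above Cldn7, the claudin that binds it. In order from the lowest ratio, the genes were Krt18, Cldn3, Cldn10, Cldn4, Cldn7, Epcam, Krt7, Cdh1 and Krt8. No gene was further than the SD of 0.91 from its neighbour in that order except Cdh1, which lay 0.97 above Krt7. That SD leaves out the mean difference of 0.41 between 2 probe sets of a gene. With the mean kept in, the root mean square difference was 0.99, which is larger than this gap.

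Genes of like brightness had unlike ratios. On these arrays the median log2 ratio went from -0.24 in the dimmest of 5 equal groups of genes to 0.31 in the brightest. Krt18, Cldn10, Cdh1 and Epcam all had mean signals in the fourth group, whose median was 0.00, and their ratios there were -2.20, -1.71, 0.58 and -0.51. Cldn3 and Cldn7 were in the second group, whose median was -0.36, so that they lay 1.38 and 0.39 below it on the log2 scale. Cldn4, in the dimmest group, lay 1.02 below its group's median, and Krt8, in the brightest, lay 0.33 above.

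**Figure D3:**
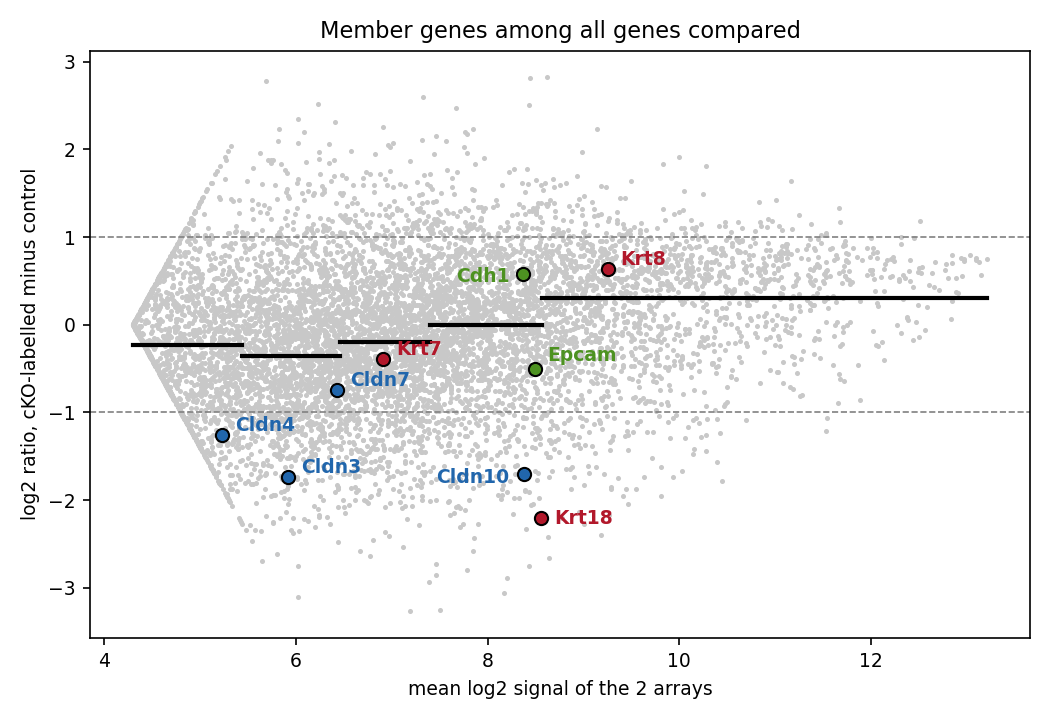
Log2 ratio (cKO-labelled minus control) against mean log2 signal for all 8593 genes compared (grey), with the 9 measured member genes in colour (keratins red, claudins blue, Cdh1 and Epcam green). Black lines are the medians in 5 groups of equal size, dashed lines mark 2-fold, and the slanted edges at the left come from the floor. Krt18, Cldn10, Cdh1 and Epcam have similar mean signals and ratios from -2.20 to 0.58.

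The other keratins and claudins on the array were mostly at the floor. Of 36 further keratins, 31 were at the floor on both arrays, among them the basal keratins Krt5 and Krt14. The 5 compared were Krt10 (-0.59), Krt23 (-0.58), Krt80 (0.21), Krt83 (0.27) and Krt81 (0.32), none past 2-fold. Of 14 further claudins, 8 stayed at the floor throughout and none of the 6 compared was past 2-fold. Cldn5, the claudin of endothelial tight junctions, had signals of 235 and 123 (log2 ratio -0.94), and Cldn15 had a log2 ratio of -0.53. Cldn1, Cldn8 and Cldn23 lay between -0.06 and 0.09, and Cldn2 was at the floor on the control array with a signal of 21.4 on the other. The direction of both family medians was not settled, as 0.21 for the keratins turned to -0.20 with the floor at the 60th percentile and -0.05 for the claudins turned to 0.22 after quantile normalization. Cldn5 alone among these had a ratio within the range of the 4 member claudins.

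At their brightest probe sets, further epithelial genes, in lists that hold no member, did not share the ratio of the claudins either. Of 14 genes of junctions and polarity compared, 1 was lower by 2-fold or more and 2 were higher by 2-fold or more, and the median log2 ratio was 0.45, which ran from 0.34 to 0.73 over all settings. Among all genes compared, 13.0% fell and 6.21% rose by that much, so counts this small do not set the list apart. The catenin Ctnnd1, which binds Cdh1 at the membrane, was at least 2.73-fold lower, with a signal of 53.9 in the control and under the floor on the other. Another catenin, Ctnnb1, gave 0.27 at its brightest probe set (signals 3451 and 4147). Its dimmer probe sets gave -1.79 (signals 491 and 142), a ratio as low as that of Cldn3, and -0.77, so its direction was not settled. Dsg2, a desmosomal cadherin, had signals of 68.6 and 165 (log2 ratio 1.27), with 1.55 at a second probe set and the other 4 at the floor. Crb3, a polarity protein of the apical membrane, had a log2 ratio of 1.04, with its other 2 probe sets at the floor. Of 10 epithelial transcription and splicing factors, none was at least 2-fold lower and 3 were at least 2-fold higher. By any amount, 5 were higher and 5 lower. The lower ones were Pax8 (-0.87), Klf5 (-0.72), Elf3 (-0.51), Esrp1 (-0.43) and Esrp2, at least 1.45-fold lower. Klf5 was at least 2.44-fold higher at its other probe set, and Esrp2 at least 1.18-fold. Sox17, with 0.97 at its brightest probe set, had -1.40 at its other. Among the 3 at least 2-fold higher, Grhl2, a factor that maintains epithelial junction genes, had signals of 30.5 and 108.7 (log2 ratio 1.83), with its other 3 probe sets at the floor. Sox9, also expressed in uterine glands, had a log2 ratio of 1.55 at the brightest probe set but -0.57 at the other, so its direction was not settled. Ehf gave 1.37, and its other 2 probe sets, under the floor in the control, were at least 1.69-fold and at least 1.07-fold higher.

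The surface and secretory lists went both ways. Of 13 epithelial surface and traffic genes, none was at least 2-fold lower and 1 was at least 2-fold higher, Prom1, a protein of membrane protrusions (signals 2072 and 4212, log2 ratio 1.02), and the median was -0.05. In all, 8 of the 13 were lower by any amount and 5 higher, where 55.3% of all genes compared were lower. The lower ones included Prss8 (-0.66), Ap1m2 (-0.63), St14 (-0.57) and Lgals4, at least 1.63-fold lower. Spint2 gave 0.39 at its brightest probe set but -1.13 at its other. No gene of this list was 2-fold higher after quantile normalization, after removal of the trend with signal or relative to the stroma marker median. Of 17 genes of glandular and luminal secretion, 3 were at least 2-fold higher and none at least 2-fold lower, with a median of 0.35 that turned to -0.22 without _s_at and _x_at probe sets. The 3 were Sprr2f (2.31, signals 38.2 and 189), the transporter of secreted antibodies Pigr (1.19, with 0.24 at its other probe set) and Calb1, at least 2.71-fold higher. Calb1 was under the floor in the control. By any amount, 11 of the 17 were higher and 6 lower. Among bright genes of the list, Spink1 had signals of 5173 and 3917 (-0.40) and Prss28 of 5104 and 2814 (-0.86). Prss29 gave 0.36 at its brightest probe set, but -1.47 and -0.21 at its other 2. Over the settings of scaling, floor and probe set choice, the number at least 2-fold higher ran from 1 to 5 in the junction list, from 1 to 5 in the factor list and from 2 to 4 in the secretory list, and up to 2 secretory genes were at least 2-fold lower. Both counts of 5 came from median centring. The share of all genes at least 2-fold higher itself ran from 4.24% with the median over probe sets to 13.3% after median centring. The medians of the factor and surface lists also changed sign between settings, so no direction is given for them.

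**Figure D4:**
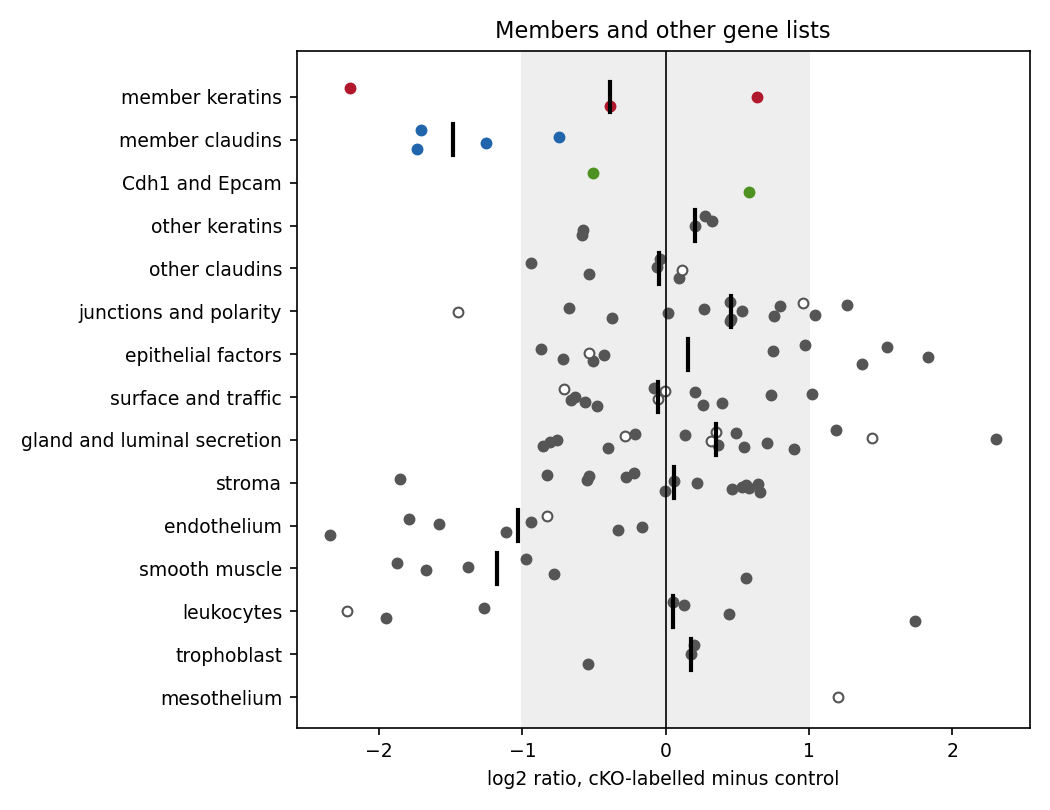
Log2 ratio (cKO-labelled minus control) of each gene compared, by member group and by list, with open circles for bounds and a black bar for the median of lists with at least 3 genes. Grey shading is within 2-fold. The member claudins lie between -1.74 and -0.75, whereas genes of the other epithelial lists lie on both sides of zero.

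Other cell types can carry some of these transcripts. Mesothelium and trophoblast also make simple keratins. Of 5 mesothelium markers on the array, 4 were at the floor on both arrays, including Msln and Upk3b, and Gpm6a was at least 2.30-fold higher on the cKO-labelled array, with a summed signal of 25.3 and 59.2 over the list. Of 7 trophoblast markers, 4 stayed at the floor throughout, including Cdx2 and Hand1. The summed signal was 248 and 255, with Plet1 (0.19) and Eomes (-0.54, with 0.18 at its other probe set) the brightest. Of 8 endothelial markers, all were lower by some amount and 4 by 2-fold or more (summed signal 2208 and 1083). Of 6 smooth muscle markers, 3 were at least 2-fold lower (summed signal 9029 and 8259), and of 8 leukocyte markers 7 were compared, of which 3 were 2-fold or more lower and 1 was 2-fold or more higher (summed signal 1763 and 2284). The brightest smooth muscle marker, the actin Acta2, was higher (signals 4246 and 6274, log2 ratio 0.56), and the dimmer probe set of Myh11 was 2.31-fold higher while its brightest was 1.71-fold lower. Endothelial markers were thus lower on the same array as the claudins and Krt18, as were 5 of the 6 smooth muscle markers by any amount, and the part of either in the members' ratios was not tested.

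The signs of all 9 measured genes held under every setting that gave a value, although settings of floor and probe set choice could not change many of them. Krt18 ran from -2.27 to -1.92, Cldn10 from -1.76 to -1.43, Krt8 from 0.47 to 0.92 and Cdh1 from 0.52 to 0.86 on the log2 scale. The difference between Krt8 and Krt18 ran from 2.74 to 2.84, since both arrays' scaling cancels in it almost entirely.

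**Figure D5:**
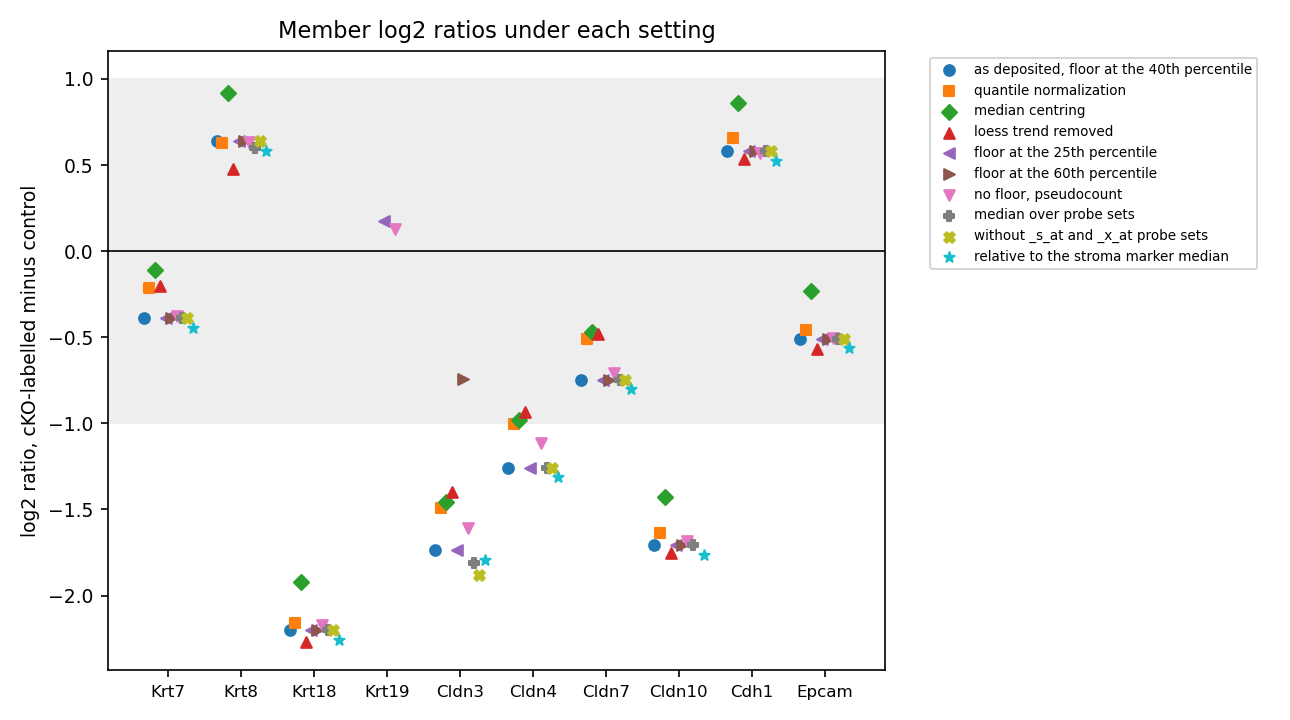
Log2 ratio (cKO-labelled minus control) of each member gene as deposited and under 9 other settings, with grey shading within 2-fold. The order of Krt18 and Krt8 at the bottom and top holds throughout, except that Cdh1 lies above Krt8 in 2 settings, and Cldn3 is a bound at the 60th percentile floor, where Cldn4 has no value. Krt19 has a value in only 2 settings.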

How the data were processed

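RNA of uterine stromal cells was measured on 2 one-colour Affymetrix arrays, 1 per group. RNA isolation used Trizol and a Qiagen RNeasy clean-up, and labelling the Affymetrix 3' Express kit, per the labels' protocols. The deposited values are intensities, MAS5 signals on a linear scale, made by the authors with MAS5 in Affymetrix Expression Console version 1 per the submitters' processing notes. Their scaling target was not given in the sources used here, and the 2% trimmed means were 150.1 on both arrays.

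Gene names came from the platform annotation, with symbols updated through Entrez identifiers in the RefSeq gene table of GRCm38.p6 (20351 of 20380 with 1 symbol). The 64 control probe sets entered no gene value. Signals were raised to the floor and put on a log2 scale, and the probe set with the highest mean log2 signal stood for its gene. Genes at the floor on both arrays (3800) have no ratio, and those at the floor on 1 have a bound. Genes were counted by a 2-fold size rule. Named genes are the members, every further keratin and claudin above the floor, and up to 4 genes of each of 10 further lists past 2-fold, or the 2 brightest where none was. Some further list genes and dimmer probe sets are named where they went the other way. Among the markers of other cell types, values are printed for few of them. Members and lists were chosen with earlier results of these data known. Alternatives covered scaling, floor, pseudocount, choice of probe set and fold. Sequences are from the RefSeq promoter table of GRCm38.p6, which gives 250 bases before and 50 after each start. Python 3.11.15, pandas 2.3.3 and statsmodels 0.14.6 were used.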

Additional observations from a re-analysis of the deposited data

How the results depend on the processing

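The results were recomputed under 11 alternatives and 1 chosen after seeing the data, ratios taken relative to the median of the stroma markers. Of 139 recomputed values, 135 moved by less than the probe set SD of 0.64, or by no more than 1.5 times for a count, and no value past 2-fold changed sign. Many of these values could not move. A gene with a single probe set well above the floor kept its ratio under other floors and choices of probe set. Median centring and the stroma reference shifted ratios above the floor by a constant. No setting addressed the 3' to 5' difference, so the 135 are no measure of how reliable the ratios are. With the floor at the 60th percentile (a signal of 66.3), the number of members at least 2-fold lower went from 4 to 2, the median of the claudins from -1.48 to -0.75 and Cldn3 from -1.74 to -0.74, since that floor holds Cldn3 on the cKO-labelled array and Cldn4 on both. At 1.5-fold in place of 2-fold, 1 member was higher, Krt8. Median centring moved the median of all genes by 0.26 and quantile normalization by 0.13. No paired analysis was possible because each group has 1 array. No replicate could be left out for the same reason. Cldn4 and Cldn3 lie near the floor on the cKO-labelled array, which limits the precision of their ratios, and the arrays' number limits that of every value.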
